A study of Mus musculus with 3 samples.

Results

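Bim, encoded by Bcl2l11, and 9 other genes of the BCL2 family of cell death regulators were followed across 3 columns of CT26 expression data. CT26 is a mouse colon carcinoma cell line. The members were the probe sets that the platform annotation lists under Bcl2l11, Bid, Bbc3, Bad, Pmaip1, Bcl2, Bcl2l1, Mcl1, Bax or Bak1. Of these 10 genes, 9 had a probe set, 1 each, among 35556 probe sets and 19938 genes in all. Bax had none under its name, and its level is not analysed here. The groups were miR-Ctrl (here Ctrl), which carried a control microRNA, and miR-17~92Med (Med) and miR-17~92Hi (Hi), which carried the miR-17~92 microRNA cluster at medium and high levels. All 3 lines carry a stably integrated PIG vector, and puromycin selection and sorting of GFP-positive cells preceded cloning by dilution, so each stands for selected clones and not for a whole culture. The design names 3 subclones per group, but each group has 1 column of values. Whether that column is 1 subclone, a pool or a mean is unknown here. With 1 column per group there is no replicate error, no test and no p-value, and "higher" and "lower" describe these columns alone.

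The BCL2 family decides whether the outer mitochondrial membrane is breached during apoptosis. Survival proteins (Bcl2, Bcl2l1 as Bcl-xL, and Mcl1) hold the pore-forming Bax and Bak1 in check, and BH3-only proteins (Bim, Bid, Bbc3 as Puma, Bad, and Pmaip1 as Noxa) bind the survival proteins or activate the pore formers. Bim is a well-known target of the miR-17~92 cluster in mouse lymphoid cells, where loss of the cluster raises its level. A microRNA recognises its target mainly through its seed, bases 2 to 8, which pairs with a complementary stretch of the messenger RNA.

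The mature microRNAs of the cluster define what a target of it must pair with, so their sequences (RefSeq, GRCm38.p6, plus strand of chromosome 14) are shown with the seed in capitals. The hairpins lie in 1 transcript, and the 6 mature strands carry 4 different seeds.
miR-17-5p: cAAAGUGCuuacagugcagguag
miR-20a-5p: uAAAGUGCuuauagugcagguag
miR-18a-5p: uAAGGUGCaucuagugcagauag
miR-19a-3p: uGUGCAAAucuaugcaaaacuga
miR-19b-3p: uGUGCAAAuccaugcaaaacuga
miR-92a-3p: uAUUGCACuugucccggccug
miR-17-5p and miR-20a-5p share a seed, which pairs with GCACUUU in a messenger. miR-19a-3p and miR-19b-3p share another, which pairs with UUUGCAC. The seeds of miR-18a-5p and miR-92a-3p pair with GCACCUU and GUGCAAU. Which members hold these stretches was not searched, as no transcript sequences were used here.

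The Ctrl column stood apart from the others, which bears on every difference from it. Across probe sets Ctrl correlated with Hi at r = 0.795 and with Med at 0.787, while Hi and Med correlated at 0.992 (genes are not independent replicates). Values were identical to the last digit in Hi and Med in 43.7% of probe sets. The mitochondrially encoded COX2 and ND3 lay between 5.07 and 6.00 in Ctrl, between 12.49 and 13.40 in Med and between 12.21 and 13.31 in Hi. The cluster's host transcript Mir17hg read 5.98 in Ctrl and 6.02 in Med and Hi, so the array gave no check of the labelled levels. Of 8 epithelial markers 3 passed the expression filter, a mean level of at least 7.13 (the median of all genes). Krt18 reached 12.28 in Hi, 11.41 in Med and 7.97 in Ctrl, but 6 of the 8 were lower in both cluster columns than in Ctrl. These were Krt8, at 7.32 in Hi and 7.28 in Med against 8.92 in Ctrl, and Epcam, Cdh1, Vil1, Cdx2 and Cldn7, all below the filter. Of 8 markers of immune, endothelial and stromal cells only Col1a1 passed, and all 8 were lower in both cluster columns. Summed on the linear scale these 8 came to 639 in Hi and 621 in Med against 1350 in Ctrl. The 8 epithelial markers came to 5680 in Hi and 3342 in Med against 1488 in Ctrl. That higher epithelial sum came mainly from Krt18. Apart from it only Krt19 was above Ctrl, and in Hi alone (7.87 against 7.50). Olfactory and vomeronasal receptor genes, taken as a gauge of background in a colon line, had a median of 4.51 in Hi and Med against 4.92 in Ctrl, and a 95th percentile of 6.20 in Hi and 6.17 in Med against 6.87 in Ctrl. The gauge was thus lower in both cluster columns. What part these markers, the background and the distance of Ctrl have in the differences below was not tested.

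The BH3-only genes split in direction. Of the 9 measured members 8 passed the expression filter, and all 9 are described. In such bulk RNA, fewer cells expressing a gene and less RNA per cell cannot be told apart. Bcl2l11 had log2 levels of 8.34 in Ctrl, 10.02 in Med and 9.74 in Hi. Both cluster columns were above Ctrl, by 1.40 in Hi (2.64-fold) and by 1.69 in Med (3.22-fold), and Med was the highest of the 3. Of genes past the filter, 25.1% were at least as much higher in Hi and 21.2% in Med. Bid, which caspase-8 cleaves to link death receptors to mitochondria, was at 7.60, 8.94 and 8.66. It had the same order of columns as Bcl2l11 and was higher by 1.06 in Hi (2.09-fold) and by 1.35 in Med (2.54-fold). Differences at least as high were seen in 32.1% of genes past the filter in Hi and 27.5% in Med.

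Bbc3, Bad and Pmaip1 were lower in both cluster columns. Pmaip1, which acts chiefly on Mcl1, had log2 values of 7.67 in Ctrl, 6.20 in Med and 6.35 in Hi. It was the only member past 2-fold in the lower direction, by -1.32 in Hi and -1.47 in Med, and the only measured member below the expression filter (mean 6.74). The receptor genes of the background gauge were at or above the Pmaip1 level in 1.18% of 1190 cases in Ctrl, 4.62% in Med and 3.95% in Hi. Its Hi and Med levels thus lay near the upper edge of the background range, which was itself lower there than in Ctrl, and the size of its difference is uncertain. Bbc3, a p53-responsive gene, was at 7.80 in Ctrl and at the identical 6.91 in Med and Hi, a difference of -0.89 for each. Its value in Med and Hi was under the filter level of 7.13, and its mean of 7.20 was just past it. Bad, which growth factor kinases keep inactive by phosphorylation, was at 8.48, 7.57 and 7.63, lower by less than 2-fold in each (-0.85 in Hi and -0.91 in Med). All 3 genes differed from Ctrl in the same direction as the background gauge, whose part in this was not tested. The median difference of the 5 BH3-only genes, Pmaip1 included, was -0.85 in Hi and -0.89 in Med. Beside it, the median over all 19938 genes was -0.19 in Hi and -0.20 in Med, and over genes past the filter it was 0.39 and 0.42.

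**Figure D1:**
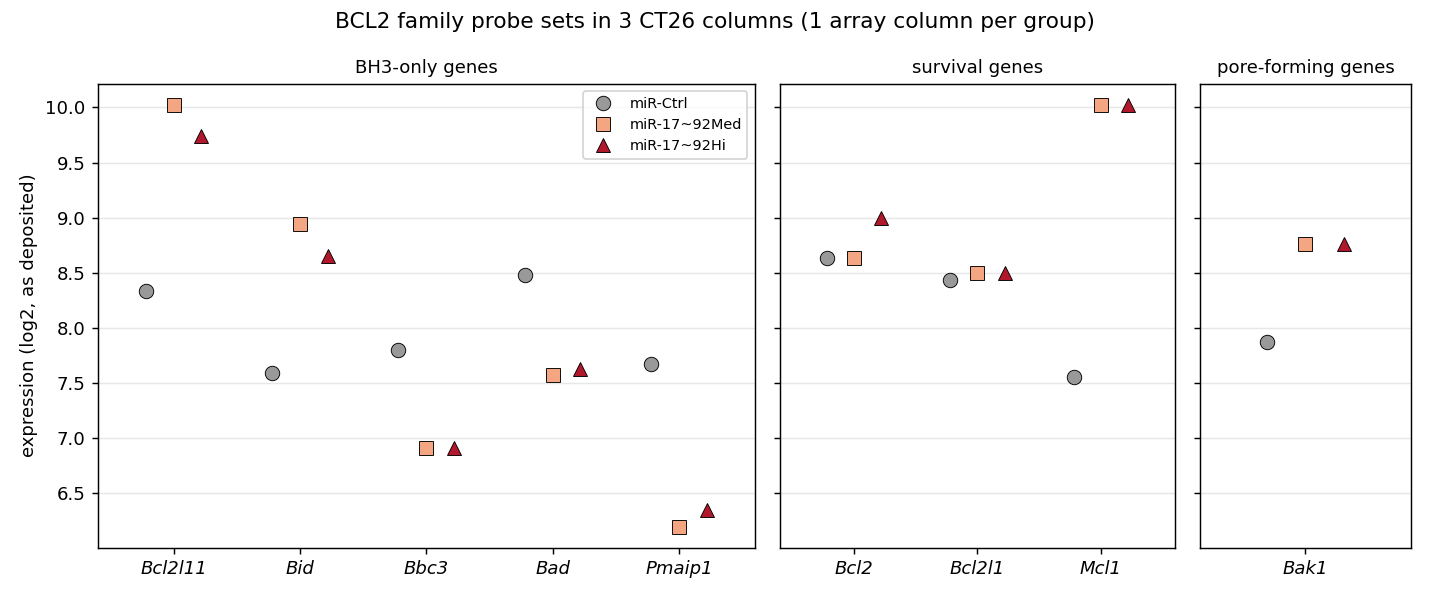
Deposited log2 level (vertical axis) of each measured member in miR-Ctrl (circles), miR-17~92Med (squares) and miR-17~92Hi (triangles), 1 value per column and no error bars; levels of different probe sets are not comparable. Mcl1, Bcl2l11, Bid, Bak1 and, by only 0.06, Bcl2l1 have both cluster columns above Ctrl, and Bbc3, Bad and Pmaip1 have both below it.

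Among the survival genes, Mcl1 had the largest difference from Ctrl of any measured member. Mcl1, a short-lived protein that restrains Bak1, was at 7.56 in Ctrl and at the identical 10.02 in Med and Hi. It was higher by 2.47 in each (5.53-fold), and of 9969 genes past the filter, 9.25% were at least as much higher in Hi and 10.1% in Med. Bcl2 was at 8.63 in Ctrl, the identical 8.63 in Med and 9.00 in Hi, so that only Hi stood above Ctrl, by 0.36. Bcl2l1 was at 8.44 in Ctrl and 8.50 in both cluster columns, a difference of 0.06. Of these 3 survival genes, then, 1 was past 2-fold. The probe sets of a further survival gene group, Bcl2a1, are shared by its near-identical copies (3 probe sets) and are given to no gene here.

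Of the pore formers only Bak1 was measured. Bak1 sits in the outer mitochondrial membrane and was at 7.87 in Ctrl and 8.76 in both cluster columns. It was higher by 0.89, short of 2-fold (1.85-fold).

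Counted together, 3 of 9 measured members (33.3%) were higher by 2-fold or more when Hi was set against Ctrl, and 1 of 9 (11.1%) was lower. Without the filter, 17.5% of all genes were higher and 15.4% lower. Among the 8 members past the filter 3 were higher (37.5%) and 0 lower, where the shares of genes past the filter were 33.5% higher and 8.40% lower, 41.8% in all. In Med against Ctrl the counts were the same, beside 18.3% higher and 16.3% lower without the filter, and 34.9% and 8.70% with it, 43.6% in all. With so few members, nothing about the family is read from these counts. The same 4 genes, Bcl2l11, Bid, Mcl1 and Pmaip1, made up the counts in both comparisons, which share the Ctrl column. Of the 9 members Mcl1 had the highest difference in both comparisons and Pmaip1 the lowest.

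**Figure D2:**
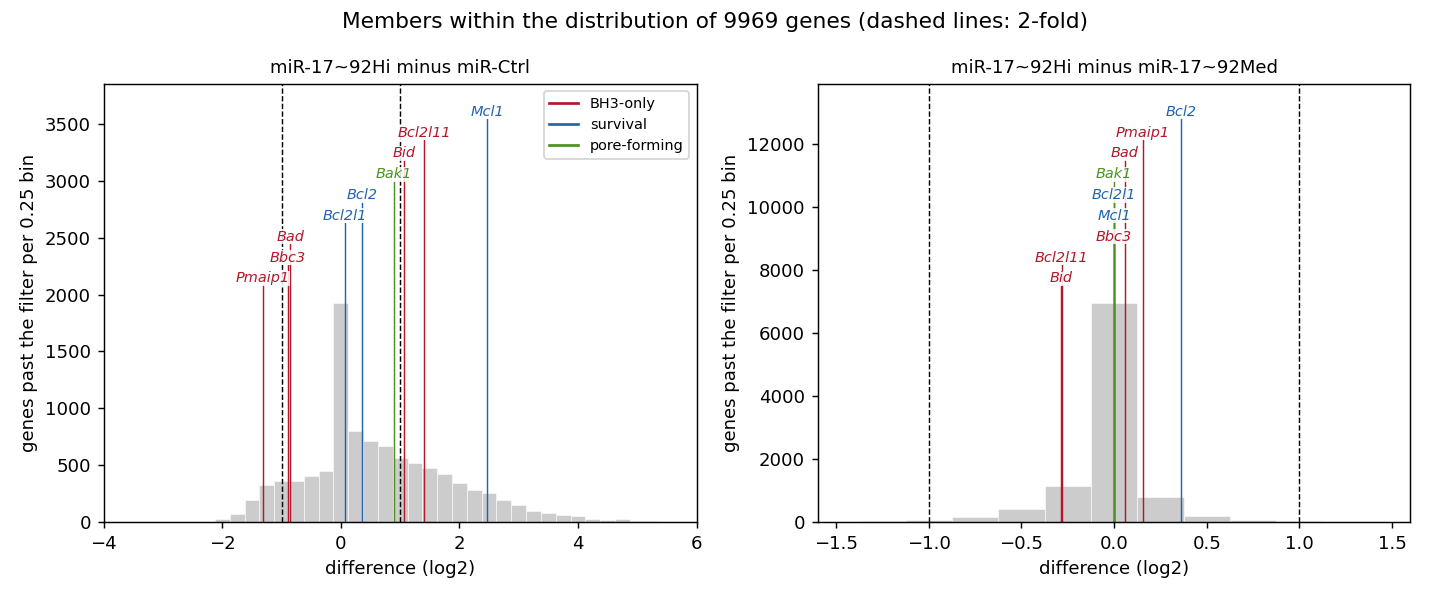
Grey bars count genes past the expression filter by log2 difference (horizontal axis, bins of 0.25), and coloured lines mark the 9 measured members, in miR-17~92Hi minus miR-Ctrl on the left and miR-17~92Hi minus miR-17~92Med on the right. Against Ctrl the members spread from -1.32 (Pmaip1) to 2.47 (Mcl1), and between the cluster columns from -0.29 (Bid) to 0.36 (Bcl2).

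Because a constant shift of a column cancels between genes of that column, unequal changes within the family do not depend on how columns are centred. Relative to Ctrl, Mcl1 was higher by 1.06 more than Bcl2l11 in Hi and by 0.78 more in Med. Bcl2l11 in turn exceeded the difference of Bcl2l1 by 1.34 in Hi and 1.62 in Med, and that of Bcl2 by 1.04 and 1.69. The widest gap was between Mcl1 and Pmaip1, its BH3-only partner, at 3.78 in Hi and 3.94 in Med. Pmaip1 was below the expression filter and near the background range in Hi and Med, so the size of this gap is uncertain. Bcl2l11 and Bid differed from each other by only 0.34 in both. These values are log2 differences of differences, and they show unequal change, not that any member was constant. Quantile normalization, which forces the columns to 1 distribution, is not a constant shift. Under it the difference of Bid from Ctrl exceeded that of Bcl2l11, at 0.82 against 0.71 in Hi and 1.03 against 0.93 in Med.

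Hi against Med does not use the Ctrl column and compares both levels of the cluster. Of the 9 measured members 0 were 2-fold higher and 0 lower, beside 0.682% and 0.863% of genes past the filter (1.54% in all). Bcl2l11 was at 9.74 in Hi and 10.02 in Med, a difference of -0.28, and Bid was at 8.66 in Hi and 8.94 in Med, a difference of -0.29. A gap as wide as that of Bcl2l11, in either direction, was seen in 15.1% of genes past the filter, and one as wide as that of Bid in 15.0%. Bcl2 differed most, with 9.00 in Hi and 8.63 in Med (0.36), and 11.2% of genes past the filter were as far apart or further. Pmaip1 (0.15) and Bad (0.06) were slightly higher in Hi. Mcl1, Bcl2l1, Bak1 and Bbc3 held the same value in both columns, 4 of 9 members beside 45.9% of genes past the filter. Relative to Bcl2l11, Bcl2 was thus higher in Hi than in Med by 0.64. Without replicates none of these differences can be told from the spread between arrays.

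The comparison with Ctrl depended on how the columns were brought to a common level. Column medians over all probe sets were 6.95 in Ctrl and 6.65 and 6.66 in Med and Hi, but over genes past the filter they were 8.07, 8.67 and 8.61. Centring on the first raises each difference from Ctrl and centring on the second lowers it, and quantile normalization forces the columns to 1 distribution. Mcl1 stayed at least 2-fold higher in Hi under each of the 4 scalings (1.93 to 2.75) and Pmaip1 at least 2-fold lower (-1.86 to -1.03). Bcl2l11 stayed higher than Ctrl but ranged from 0.71 to 1.69 in Hi and from 0.93 to 1.98 in Med, and it was under 2-fold in Hi with quantile normalization (0.71) and with centring on genes past the filter (0.86). Bid ranged from 0.52 to 1.35 in Hi and Bak1 from 0.35 to 1.18. Bbc3 (-1.43 to -0.60) and Bad (-1.39 to -0.56) stayed lower in Hi and passed 2-fold with quantile normalization and with centring on genes past the filter. The signs of Bcl2 (-0.34 to 0.65) and Bcl2l1 (-0.52 to 0.35) in Hi turned with the scaling, so neither has a settled direction.

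**Figure D3:**
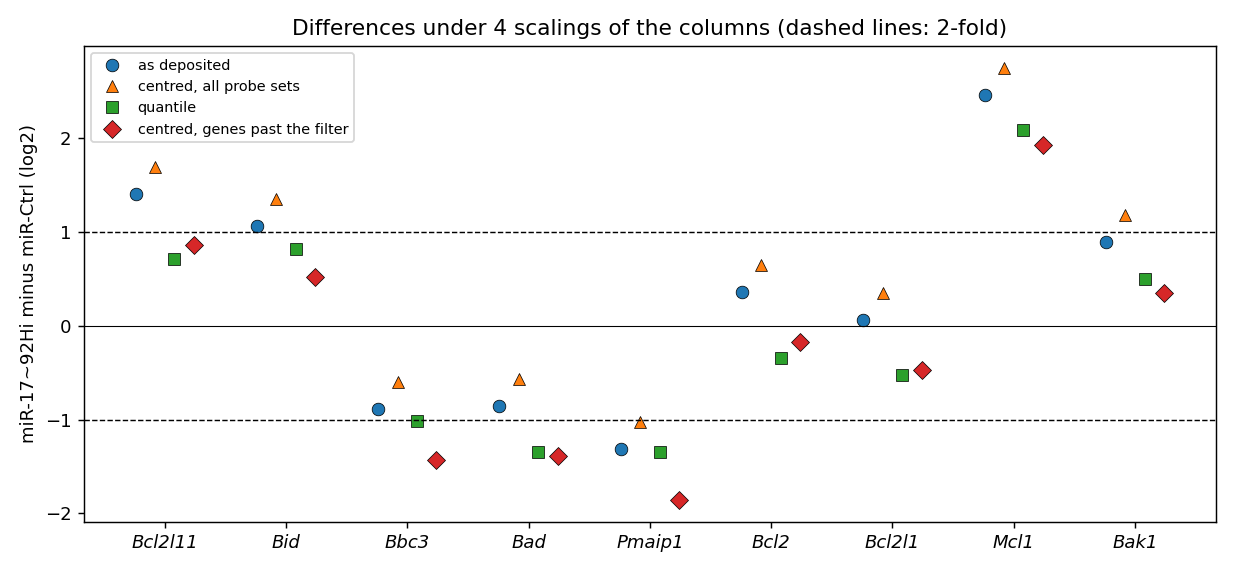
Log2 difference of miR-17~92Hi minus miR-Ctrl (vertical axis) for each measured member under the deposited values and 3 other scalings of the columns. Mcl1 stays above the upper 2-fold line and Pmaip1 below the lower one, while Bcl2 and Bcl2l1 fall on both sides of 0.

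The start regions of Bcl2l11 and Mcl1, which were past 2-fold in the same direction, are set side by side (RefSeq, GRCm38.p6, from 250 bases before to 50 after the start). Of the 10 genes 9 had windows, Bax included and Pmaip1 not, 15 in all, as some genes have several starts, and they were searched on both strands for 7 motifs. These were the FOXO motif GTAAACA, the ETS motif CCGGAAG, the E2F motif TTTNNCGC, the AP-1 motif TGANTCA, the STAT motif TTCNNNGAA, the GC box GGGCGG and the p53 half-site. Capitals mark the FOXO and ETS matches, none of which overlaps another motif searched.
Bcl2l11, chr2:128125788-128126087, plus strand: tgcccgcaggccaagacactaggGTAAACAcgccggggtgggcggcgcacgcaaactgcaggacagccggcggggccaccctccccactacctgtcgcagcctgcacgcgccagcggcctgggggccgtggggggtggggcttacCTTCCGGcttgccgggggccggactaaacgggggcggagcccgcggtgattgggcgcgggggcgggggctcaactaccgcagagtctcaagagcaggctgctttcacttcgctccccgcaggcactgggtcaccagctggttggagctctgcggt
Mcl1, chr3:95658471-95658770, plus strand: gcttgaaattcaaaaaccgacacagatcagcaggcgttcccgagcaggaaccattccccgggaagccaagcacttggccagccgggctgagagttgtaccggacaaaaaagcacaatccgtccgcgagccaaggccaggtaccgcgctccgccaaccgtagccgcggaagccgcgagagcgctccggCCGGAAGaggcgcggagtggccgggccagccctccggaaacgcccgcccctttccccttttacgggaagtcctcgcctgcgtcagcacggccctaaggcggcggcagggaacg
Both windows held the ETS letters, which 8.86% of all 32851 windows hold, as did 1 window of Bcl2l1. The FOXO letters stood in this window of Bcl2l11 and in 1 window of Bbc3, and in 3.65% of all windows. Neither the FOXO nor the ETS letters stood in the other window of Bcl2l11 or in the window of Bid, which was also past 2-fold higher. GC boxes occurred in windows of Bcl2l11, Mcl1, Bid, Bcl2, Bbc3, Bax and Bad (35.7% of all windows). A single E2F match was in a Bcl2l1 window (5.17% of all windows) and a single p53 half-site in the Bax window (8.36%). No member window held the AP-1 or the STAT letters. These matches describe the letters in the windows only.

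The genes most like Bcl2l11 in these 3 columns, by Euclidean distance of the log2 values after subtraction of each gene's mean, were Micos13, Cul5, Rpa3, Chd9 and Vrk1. Micos13 encodes a subunit of the complex that shapes mitochondrial cristae and was 0.004 away, with 7.38, 9.07 and 8.79 in Ctrl, Med and Hi. Cul5, a ubiquitin ligase scaffold, was 0.014 away, with 7.19, 8.86 and 8.57. Vrk1, the furthest of the 5, was 0.0253 away, and 70 of 9640 genes compared lay within 0.1 of Bcl2l11. Its order of columns, with Med above Hi and both above Ctrl, was shared by 2539 genes past the filter (25.5%).

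Genes around the family were counted in 7 lists of 96 distinct genes, of which 79 had a probe set of their own. Counts are over members past the expression filter, which uses the mean of all columns and so favours genes that are high in both cluster columns. Among 9 other BCL2 family and BH3 genes, 2 were past 2-fold above Ctrl in Hi and 3 below it, with a median of -0.07. Of all genes past the filter, 33.5% were higher in Hi and 8.40% lower. Bnip3l, a receptor for removal of mitochondria, read 9.94, 12.77 and 12.63 in Ctrl, Med and Hi. Bcl2l13, another mitochondrial receptor, was at 6.45, 8.77 and 8.43. Its Ctrl level was under the filter level and under the 95th percentile of the background gauge in Ctrl (6.87), so the size of its difference is uncertain. The BH3-only genes Bmf (8.69, 7.22 and 7.43) and Hrk (9.30, 8.08 and 8.11) were lower, on the side of Bbc3, Bad and Pmaip1. Bcl2l11 and Bid were on the other side. The third gene past 2-fold lower was Bcl2l12 (8.93, 7.82 and 7.82). These lower genes went in the direction of the background gauge, whose part was not tested. With columns centred on all probe sets, none of this list was 2-fold lower in Hi.

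Downstream of the family, 5 of 12 genes of mitochondrial release and the apoptosome were 2-fold higher in Hi and none lower (6 of 12 in Med), with a median of 0.78. The outer membrane channels Vdac1 (8.02, 11.95 and 11.95) and Vdac3 (8.38, 10.69 and 10.69) and the Bid receptor Mtch2 (7.72, 10.30 and 10.19) were among them. Cycs, cytochrome c, which Bak1 and Bax release, was at 7.62, 9.58 and 9.17. Apaf1, which binds cytochrome c to build the apoptosome, was higher than Ctrl by 2-fold in Med alone (7.51, 8.63 and 7.72), and of this list it differed most between Hi and Med (-0.91). The initiator Casp9 was at 8.60 in all 3 columns.

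Of 14 regulators of Bim, 4 were 2-fold higher in Hi and 1 lower, with a median of 0.00. Jun, which can induce Bim, was at 7.85, 11.05 and 10.25, and the kinase Mapk9 at 8.03, 9.51 and 9.33. Btrc, a ubiquitin ligase subunit that acts on Bim, was at 7.60, 8.93 and 9.01. Runx3 was lower, at 8.20 in Ctrl and 6.71 in both cluster columns, the latter under the filter level of 7.13. The FOXO genes were not among them, with Foxo3 at 9.29, 9.01 and 9.01 and Foxo1 at 7.85 in every column.

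Of 8 regulators of Mcl1, 4 were 2-fold higher in Hi, with a median of 0.69. They were the deubiquitinase Usp9x (8.09, 10.26 and 10.26), which stabilises Mcl1, the kinases Gsk3a (8.32, 10.29 and 10.29) and Cdk9 (9.09, 10.20 and 10.20), and Btrc. Huwe1, the ligase also called Mule, was at 10.48, 10.76 and 10.76. Regulators of Bad and Bid had 9 of 13 members 2-fold higher in Hi and 8 in Med, with medians of 1.44 and 1.21. The Bid-cleaving Casp8 (6.50, 10.32 and 10.16) and the cathepsins Ctsb (7.51, 12.41 and 12.37) and Ctsd (7.53, 10.82 and 11.47) were furthest from Ctrl in Hi. They were followed by Ppp3ca (8.66, 10.27 and 11.12), a calcineurin subunit that dephosphorylates Bad. Casp8 in Ctrl was under the filter level and under the 95th percentile of the background gauge there (6.87), so the size of its difference is uncertain.

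Between the cluster columns 1 of the 79 measured genes of the 7 lists was 2-fold apart, beside 1.54% of genes past the filter. This was Pim2, a kinase that phosphorylates Bad. It was at 9.93 in Hi and 8.19 in Med, a difference of 1.74, and at 8.59 in Ctrl. Ppp3ca, a phosphatase subunit acting on the same protein, differed by 0.85 in the same direction. Bad itself differed by 0.06.

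A list of transcription factors linked to Puma, Noxa and Bax, with the p53 ligase Mdm2, had 7 measured genes, of which 5 passed the filter and 2 were higher in Hi. They were Myc (8.48, 12.21 and 12.06) and Mdm2 (6.76, 9.02 and 8.45), while Atf4 was at 8.62, 8.54 and 8.54. Mdm2 in Ctrl was under the filter level and under the 95th percentile of the background gauge there (6.87). The p53 relatives Trp63 (-1.38 in Hi) and Trp73 (-0.98 in Hi) were below the filter and lower than Ctrl. Modulators of Bax and Bak had 6 of 10 members higher and none lower, with a median of 1.74, led by Ghitm (7.65, 10.93 and 10.98) and Tmbim6 (9.16, 11.16 and 11.49), membrane proteins of the Bax inhibitor family. Bag6 was at 8.53, 10.88 and 10.77, and Sh3glb1, which binds Bax, at 9.01, 11.22 and 10.81. Beside all of these counts, 33.5% of genes past the filter were 2-fold higher in Hi and 8.40% lower. In Med the shares were 34.9% and 8.70%. The median of genes past the filter was 0.39 in Hi and 0.42 in Med. The list medians moved with the scaling of the columns. Those of the regulators of Bad and Bid (0.56 to 1.73 in Hi) and of the modulators of Bax and Bak (0.62 to 2.03) stayed above 0 under the 4 scalings, but with quantile normalization the counts in Hi were 5 higher and 1 lower of 13, and 4 higher and 0 lower of 10. With quantile normalization the medians in Hi of the mitochondrial release genes (-0.01) and of the regulators of Mcl1 (-0.06) were below 0. Under the same scaling the median of genes past the filter in Hi was -0.08. Regulators of Bim then had 2 members higher and 4 lower of 14 in Hi. Beside these quantile counts, 2450 of 9969 genes past the filter were higher in Hi and 1781 lower. With columns centred on all probe sets, none of the other BCL2 family and BH3 genes was 2-fold lower in Hi, and 1 was in Med. Under that scaling 416 of 9969 genes past the filter were lower in Hi and 469 in Med.

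**Figure D4:**
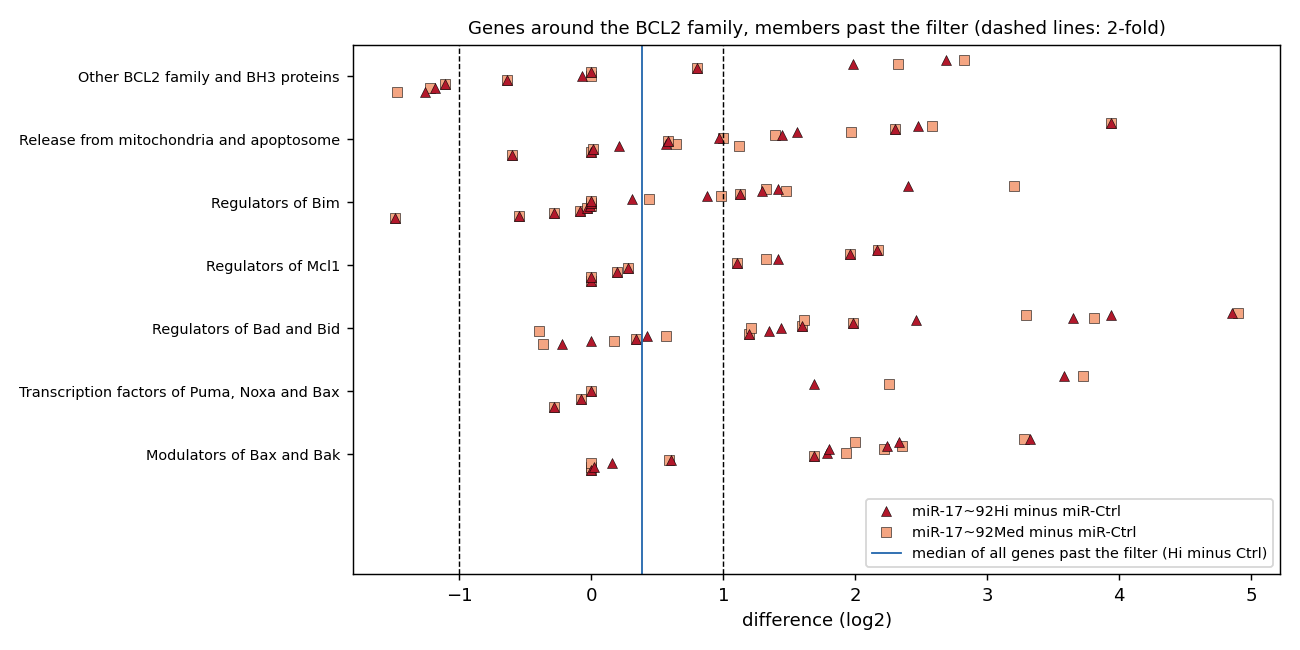
Log2 differences from miR-Ctrl (horizontal axis) of miR-17~92Hi (triangles) and miR-17~92Med (squares) for the members of 7 gene lists that passed the expression filter, with the median of genes past the filter in Hi as a vertical line at 0.39. The furthest from Ctrl in Hi are Ctsb, Vdac1 and Ctsd, and Runx3, Bmf, Hrk and Bcl2l12 lie past the lower 2-fold line.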

How the data were processed

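Total RNA of 3 CT26 lines was hybridized to an Affymetrix array, 100 ng per sample per the labels' protocols. The deposited table holds 1 column of log2 values per group. The authors' normalization came before deposit, and the log2 base was taken from the range of 2.13 to 14.85. Affymetrix Expression Console and GCRMA are named per the submitters' processing notes, with no role or version. No array signal over background was used, and the single array column per group limits the precision.

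Symbols came from GEO's platform annotation, updated by gene number to RefSeq (GRCm38.p6): 21789 probe sets had 1 gene, 1621 several and 12146 none, and 21698 matched. Probe sets of a gene were averaged. Genes with a mean of at least 7.13, the median of all genes, passed the filter (9969). A log2 difference of 1 counted as 2-fold. The alternatives were 3 other scalings, the brightest probe set, no filter and 1.5-fold. Centring on genes past the filter was chosen after seeing the data, as was the receptor gauge. Named were all members and, per list, up to 4 genes 2-fold apart furthest from Ctrl in Hi and up to 2 furthest between Hi and Med. The 5 genes nearest to Bcl2l11 were also named. Bcl2l12, Casp9, Foxo1, Foxo3, Huwe1 and Atf4 were picked with their values in view. The members and lists were chosen with earlier results of these data known. Counting was tested on simulated data. Python 3.11.15 and pandas 2.3.3 were used. Per-sample columns left unmapped numbered 0.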

Additional observations from a re-analysis of the deposited data

How the results depend on the processing

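Each result is 1 array column per group, so no replicate could be left out. No paired analysis was possible because each group has a single column. With quantile normalization 1 member was past 2-fold above Ctrl in Hi and 3 below it, against 3 and 1 as deposited, and 3 were lower in Med, against 1. Centring on the median of genes past the filter, an alternative chosen after seeing the data, gave 1 higher and 3 lower in Hi, and 3 lower in Med. At 1.5-fold 3 members were lower in Hi and 3 in Med. Beside these counts, 837 of 9969 genes past the filter were 2-fold lower in Hi as deposited and 867 in Med. With quantile normalization 1781 were lower in Hi and 1875 in Med, and with centring on genes past the filter 1637 and 1746. At 1.5-fold 1448 and 1460 were lower. Those higher in Hi numbered 3335 as deposited, 2450 with quantile normalization and 2230 with centring on genes past the filter. Genes 2-fold apart numbered 6562 in Hi and 6911 in Med against Ctrl without the filter (4172 and 4342 with it), since more genes were counted. Between Hi and Med they numbered 100 with quantile normalization and 519 at 1.5-fold, against 154. Of the genes 2-fold apart between Hi and Ctrl, 79.9% were higher as deposited, 53.1% without the filter (3485 higher and 3077 lower), 90.7% with columns centred on all probe sets, 57.9% with quantile normalization and 57.7% with centring on genes past the filter. The cause of these shifts was not tested. No member past 2-fold turned its sign under any scaling tried, and no member was 1.5-fold apart between Hi and Med. Of 108 member differences recomputed, 6 dropped under 2-fold and 10 passed it, and of 252 list counts 31 moved by over 1.5 times, or to or from 0.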

Other observations

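Several genes around the family held 1 value to the last deposited digit in all 3 columns. Of the 79 genes of the lists with a probe set, 7 did so: Bag3 (8.96), Becn1 (9.24), Casp9 (8.60), Ddit3 (8.13), Foxo1 (7.85), Gsk3b (9.16) and Stat3 (10.43), and 33 had identical values in Hi and Med. Over all probe sets 7.92% were identical in every column. With genes split by mean level into 5 bins of equal number, the share identical in Hi and Med was 65.0% in the lowest bin and 41.3% in the highest. The share identical in all columns ran from 4.24% to 13.2% over the 5 bins. A difference of exactly 0 between Hi and Med is therefore common at every level. Ties of Med and Ctrl were fewer, from 4.77% to 14.4% over the bins. Bcl2 tied in Med and Ctrl, with Hi apart. In the highest bin, which holds Bcl2, 8.22% of genes tied in Med and Ctrl and 7.25% in all 3 columns.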
